A study of Homo sapiens with 6 samples.

Results

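The genes described here are those of the endoplasmic reticulum (ER) stress response, of the transcription factor ATF4 and of amino acid synthesis, compared between 2 established human glioblastoma cell lines. A list of 36 gene symbols was matched to the gene symbols of an Affymetrix expression array, and 35 of the 36 were measured, among 11963 genes in all. WARS was found under its current symbol WARS1, and SYVN1 was not analysed here. Where a gene had several probe sets, the one brightest on average over the 6 arrays was used. T98G and U87MG had 3 arrays each, numbered 1 to 3 within a line. The labels name no treatment for either line, and both were cultured in DMEM with fetal bovine serum, glutamine and antibiotics. The study concerned how glioblastoma cells die under bortezomib, an inhibitor of the proteasome, and G5, an inhibitor of isopeptidases. The labels call T98G sensitive to apoptosis by either drug and partly resistant to necrosis by G5, and U87MG the reverse, with apoptosis resisted and necrosis by G5 allowed. Levels are log2 values with mean ± SD over the arrays of a line (n = 3). A difference is the U87MG mean less the T98G mean in log2 units, with the 95% limma interval in brackets.

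When unfolded protein gathers in the ER, 3 membrane sensors respond. IRE1 (gene ERN1) splices the messenger RNA of XBP1, PERK (gene EIF2AK3) phosphorylates the translation initiation factor eIF2 alpha, and ATF6 is cut to release a transcription factor. Phosphorylated eIF2 alpha slows most translation but favours that of ATF4, which also rises when amino acids run short and switches on enzymes and transporters for amino acids. XBP1 and ATF6 switch on ER chaperones and the machinery that returns misfolded protein to the cytosol for the proteasome. Because splicing, phosphorylation, cleavage and translation control these regulators, an array that measures total transcript does not read their activity.

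Known response elements of these factors were looked for in the promoters of the members, from 250 bases before to 50 bases after each annotated start in RefSeq on GRCh38.p14. Of the 35 measured members, 32 had an entry in that table. The ER stress response element, bound by ATF6 with the factor NF-Y, was searched on both strands as CCAAT and CCACG separated by 9 bases. It was found in 5 of the 32 members (15.6%) and in 25 of all 27305 genes (0.0916%). The sites are shown because they mark the members with the full element beside a start, with the fixed letters in capitals.
XBP1, chr22:28800588-28800636 (minus strand): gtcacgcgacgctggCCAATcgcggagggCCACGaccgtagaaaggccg
CANX, chr5:179698763-179698811 (plus strand): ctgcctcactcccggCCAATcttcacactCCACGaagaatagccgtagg
PDIA6, chr2:10812838-10812886 (minus strand): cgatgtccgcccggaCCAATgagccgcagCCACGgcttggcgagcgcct
CALR, chr19:12938369-12938417 (plus strand): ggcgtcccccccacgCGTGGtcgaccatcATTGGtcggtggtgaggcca
SERP1, chr3:150546695-150546743 (minus strand): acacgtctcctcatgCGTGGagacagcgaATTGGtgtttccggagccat

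In CALR and SERP1 the element lay on the opposite strand, so its reverse complement is in capitals. The CANX site lies 151 or 189 bases before 2 of the annotated CANX starts, and it spans a further one. None of these 5 genes was among those called different between the lines by the test given below, which called 13.6% of all genes. Of the 5, CANX alone had an adjusted p under 0.05 in that test, short of 2-fold, against 41.3% of all genes. The second part of the element alone, CCACG, was found in 20 of the 32 members (62.5%) and in 42.1% of all genes.

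The composite element of ATF4 with C/EBP factors was searched on both strands in a strict form, TGATGCAAA, and in a looser one, TGATGNAAN. The strict form was in 0 of the 32 members and 0.308% of all genes. The looser form was in 4 members (12.5%) and 4.45% of all genes. These 4 sites are shown because ASNS and CHAC1 were among the members that varied most between arrays. Capitals mark the fixed letters, again as the reverse complement in CHAC1 and HERPUD1.
ASNS, chr7:97872453-97872491 (minus strand): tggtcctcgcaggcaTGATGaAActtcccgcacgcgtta
CHAC1, chr15:40953246-40953284 (plus strand): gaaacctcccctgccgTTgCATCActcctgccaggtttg
ATF3, chr1:212565201-212565239 (plus strand): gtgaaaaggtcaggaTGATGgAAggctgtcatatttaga
HERPUD1, chr16:56931950-56931988 (plus strand): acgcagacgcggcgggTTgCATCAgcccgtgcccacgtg

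The element TGACGTGG, bound by XBP1 and ATF6, was in 1 member, HYOU1, and in 0.927% of all genes. The cyclic AMP element TGACGTCA, which shares 6 letters with it, was in 1 member, PPP1R15A, and in 2.25% of all genes. The HYOU1 site holds CCACG on its other strand and so also counts among the 20 members above. A match describes letters and is no evidence of binding.
HYOU1, chr11:119057371-119057408 (minus strand): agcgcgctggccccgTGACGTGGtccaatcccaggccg
PPP1R15A, chr19:48872348-48872385 (plus strand): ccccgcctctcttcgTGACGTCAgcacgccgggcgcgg

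Over probe sets, Pearson's r was 0.990 to 0.997 within a line and 0.934 to 0.939 between the lines. VIM and CD44, mesenchymal and glioma markers, were at 14.59 and 13.93 in T98G and 14.85 and 13.68 in U87MG. The astroglial markers GFAP, at 6.42 and 6.52, and S100B, at 4.13 and 4.23, were far lower, beside a highest value of 4.03 for control probe sets with no matching transcript. SOX2 was at 6.02 and 6.29, and NES, a filament of neural progenitors, was at 6.34 in T98G and 8.89 in U87MG. Of 11 markers of blood, endothelium, epithelium and liver, the 10 measured had line means of 3.95 to 6.22. The poly-A controls averaged 5.30 on U87MG replicate 3 and 6.10 to 6.84 elsewhere. That array was above the U87MG mean for only 5 of the 35 members, and U87MG replicate 1 for 27 of 35. Over all genes these counts were 5564 and 6230 of 11963, and the part of the control signal in the members' values was not tested. Whether the replicates came from separate cultures is not stated, and p-values therefore reflect the spread of these arrays alone, which may be technical.

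The lines differed by at least 2-fold in 3 of the 35 members. VLDLR, a lipoprotein receptor of the cell surface, was higher in U87MG by 15.7-fold. CBS, which condenses homocysteine with serine on the way to cysteine, was lower by 19.9-fold, and HYOU1, a large ER chaperone, by 2.32-fold. A gene was called when limma's p-value, adjusted by the Benjamini-Hochberg method over all genes, was under 0.05 with at least a 2-fold difference. By this rule 3 of 35 members (8.57%) were called, against 13.6% of all genes. The 1 member higher in U87MG compares with 6.56% of all genes, and the 2 lower with 7.01%. Without the fold minimum 15 of 35 members (42.9%) had an adjusted p under 0.05, 7 higher and 8 lower in U87MG, against 41.3% of all genes. At an unadjusted p under 0.05 there were 17 of 35, against 47.8% of all genes, the background for each count at that threshold. The arrays of the lines did not overlap for 17 of the 35 (48.6%), against 52.0% of all genes. These shares lie near or below those of all genes.

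The median difference over the members was -0.14, beside -0.01 over all genes. It was 0.01 without U87MG replicate 3 and -0.24 without U87MG replicate 1. Of the 15 members with an adjusted p under 0.05, 6 (ATF4, ATF3, ATF6, MTHFD2, PDIA3 and EDEM1) had one of at least 0.05 when some single array was left out. Another 6 (XBP1, HERPUD1, CALR, CTH, PSAT1 and SEC61B) fell under 0.05 in the same way. The probe sets of VLDLR, CBS and HYOU1 have identifiers of a kind that can match several transcripts, and none of these genes has another probe set. HYOU1 also missed a stricter test of a difference beyond 2-fold (limma treat, adjusted p = 0.716).

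**Figure D1:**
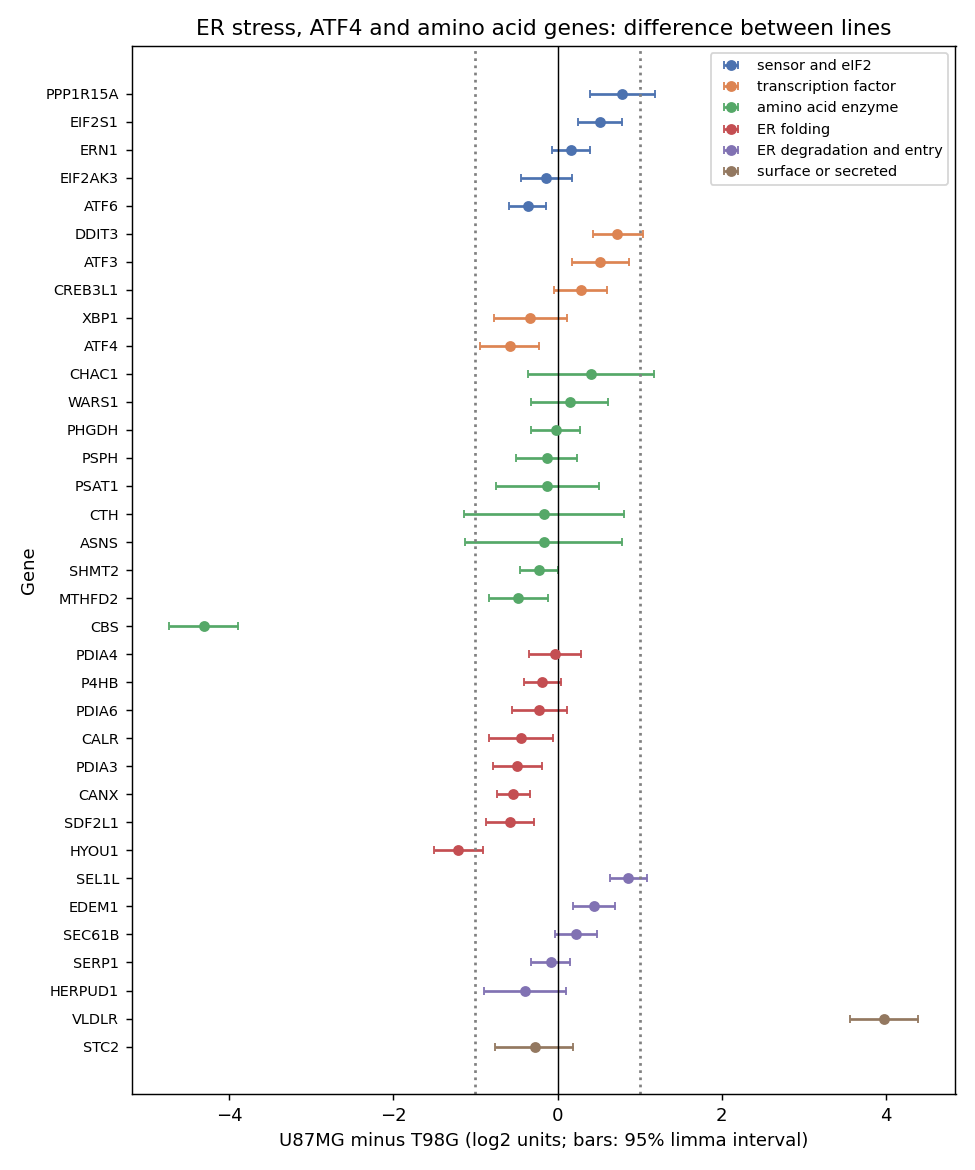
Difference between the lines for each of the 35 measured genes, as U87MG minus T98G in log2 units on the horizontal axis, with genes on the vertical axis coloured by role. Bars are 95% limma intervals, and dotted lines mark 2-fold. VLDLR lies at 3.98 and CBS at -4.31, and HYOU1, at -1.21, is the only other gene past a dotted line.

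Of the 5 sensor and eIF2 genes, limma called 0, and 3 had an unadjusted p under 0.05. ERN1 had values of 6.61, 6.46 and 6.46 in T98G and 6.65, 6.60 and 6.76 in U87MG. The highest T98G array reached into the range of U87MG, and the difference was 0.16 (95% interval -0.07 to 0.39). EIF2AK3 had 9.30, 9.42 and 9.49 in T98G and 9.35, 9.47 and 8.98 in U87MG, with U87MG replicate 3 the lowest array. Its difference was -0.14 (-0.45 to 0.17), and 0.01 without that array. ATF6 had 9.18, 9.16 and 9.34 against 8.83, 8.91 and 8.84, so each T98G array was above each U87MG array. The difference of -0.36 (-0.59 to -0.14, adjusted p = 0.0150, or 0.0648 without T98G replicate 3) was short of 2-fold. A second probe set gave -0.47 (adjusted p = 0.0930 over all probe sets).

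EIF2S1 encodes eIF2 alpha, the protein that PERK phosphorylates, and PPP1R15A encodes GADD34, which guides a phosphatase to it and so restores translation. EIF2S1 stood at 11.54 ± 0.17 in T98G and at 12.06 ± 0.11 in U87MG, so the lines differed by 0.52 (0.25 to 0.79, adjusted p = 0.00594). Its other probe sets gave 0.93 and 1.15, and the latter was past 2-fold. PPP1R15A was at 9.84, 10.28 and 9.77 in T98G and 10.50, 10.68 and 11.07 in U87MG, without overlap. Its difference was 0.79 (0.39 to 1.19, adjusted p = 0.00537), and its second probe set gave 0.83. Both members thus had an adjusted p under 0.05 with more transcript in U87MG, on every probe set, short of the 2-fold minimum on the brightest.

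The transcription factors split, with ATF4 transcript lower and DDIT3 and ATF3 transcript higher in U87MG, all 3 short of 2-fold. Limma called 0 of these 5, and the same 3 had an unadjusted p under 0.05. ATF4 had values of 12.65, 12.71 and 12.41 in T98G and 12.31, 12.01 and 11.70 in U87MG. The lowest T98G array stood above the highest U87MG array by little, and the difference was -0.58 (-0.94 to -0.23, adjusted p = 0.0140), with an adjusted p of 0.0552 without T98G replicate 2. DDIT3 encodes CHOP, a factor downstream of ATF4 that is linked to cell death, and had 9.35, 9.46 and 9.31 in T98G and 10.40, 9.95 and 9.96 in U87MG. The lines did not overlap, and the difference was 0.73 (0.43 to 1.04, adjusted p = 0.00176). ATF3, a stress-induced factor also downstream of ATF4, had 7.71, 8.01 and 7.61 against 8.37, 8.50 and 8.02. The lines came within the rounding of each other, and the difference was 0.52 (0.17 to 0.87, adjusted p = 0.0221). Without any one of 4 of the arrays the adjusted p was 0.0619 to 0.0894. XBP1 had 9.49, 9.36 and 9.37 in T98G and 9.58, 9.01 and 8.66 in U87MG, so U87MG alone held both the highest and the lowest array. Its difference was -0.33 (-0.77 to 0.12), but -0.57 without U87MG replicate 1 (adjusted p = 0.00866) and -0.11 without U87MG replicate 3. CREB3L1, a membrane-bound factor related to ATF6, had a difference of 0.28 (-0.04 to 0.60) and 0.30 on its second probe set.

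**Figure D2:**
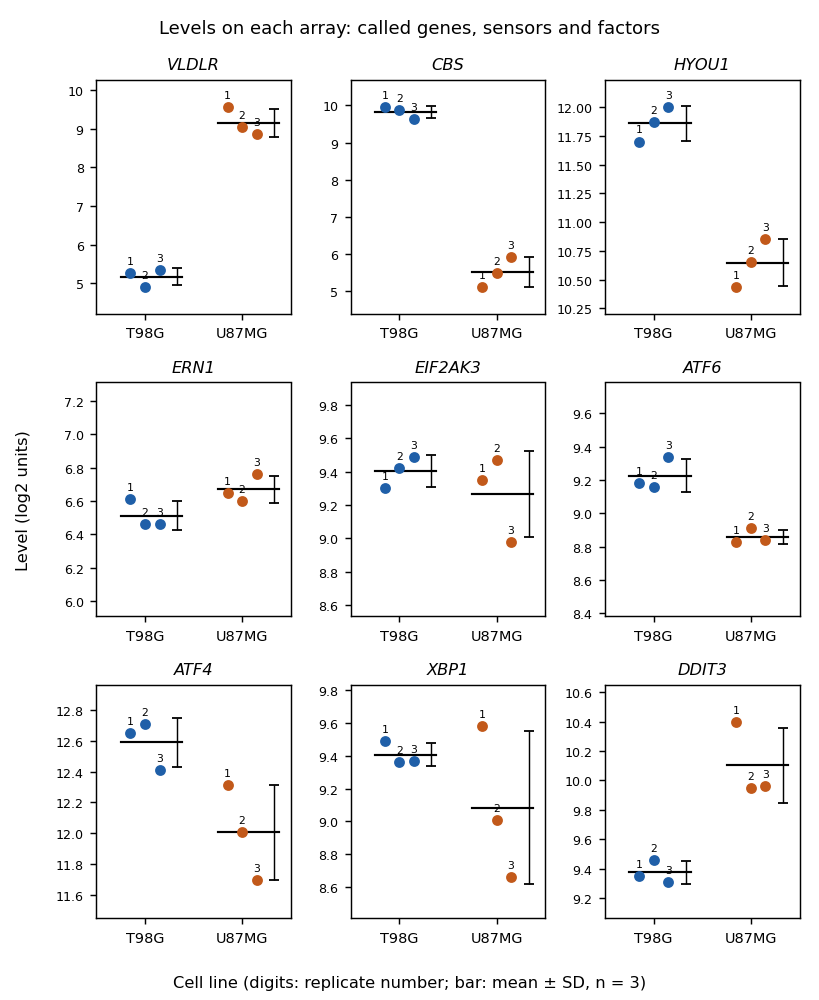
Level on each array, in log2 units on the vertical axes, which do not start at 0, for the 3 called genes, the 3 sensors and the factors ATF4, XBP1 and DDIT3. Points are arrays numbered by replicate, horizontal lines are means and bars are SD (n = 3). The lines are far apart for VLDLR and CBS, while U87MG replicate 3 is the lowest array for EIF2AK3, ATF4 and XBP1.

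Among the 10 enzymes of amino acids, one-carbon units and glutathione, CBS was called lower in U87MG and no member was called higher. CBS had 9.96, 9.89 and 9.64 in T98G and 5.13, 5.49 and 5.93 in U87MG. All T98G arrays lay more than 3 log2 units above all U87MG arrays, a difference of -4.31 (SE 0.19, adjusted p = 9.69e-08). The U87MG values stand above the 4.03 of control probe sets without a transcript, but within the 3.95 to 6.22 of the markers of other cell types. A fold measured that low depends on the background correction. CTH, the next enzyme on the way from homocysteine to cysteine, had 8.15, 7.49 and 7.63 in T98G and 8.80, 7.20 and 6.78 in U87MG. Its difference was -0.16 (-1.14 to 0.81), an interval wide enough to hold a 2-fold difference in the lower direction. Without U87MG replicate 1 it was -0.77 (adjusted p = 0.0185).

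PHGDH, PSAT1 and PSPH are the 3 steps of serine synthesis, and SHMT2 and MTHFD2 use serine for one-carbon units in mitochondria. PHGDH had a difference of -0.02 (-0.32 to 0.27) and PSAT1 of -0.13 (-0.75 to 0.50), the latter -0.49 without U87MG replicate 1 (adjusted p = 0.0474). SHMT2 had -0.23 (adjusted p = 0.104), although its arrays did not overlap between the lines. MTHFD2 had 12.54, 12.40 and 12.23 in T98G and 12.20, 11.95 and 11.58 in U87MG. Its difference of -0.48 (-0.84 to -0.12, adjusted p = 0.0372, but 0.0797 to 0.131 without any one of 4 of the arrays) was short of 2-fold and its lines nearly touched. PSPH depended on the probe set. The brightest gave -0.13 (-0.51 to 0.24), whereas the other, at 9.40 ± 0.10 in T98G and 7.35 ± 0.21 in U87MG, gave -2.05 (SE 0.13, adjusted p = 2.79e-06 over all probe sets). PSPH has a related pseudogene, PSPHP1, in the RefSeq table, and whether a probe set detects it was not tested. The mean of both probe sets was called lower at -1.09.

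For ASNS, which makes asparagine and is a classic ATF4 target, arrays of the same line differed more than the lines did. It had 10.57, 10.18 and 9.58 in T98G and 10.99, 9.76 and 9.06 in U87MG. The U87MG arrays spanned 1.93 log2 units, against a difference between lines of -0.17 (-1.13 to 0.78). CHAC1, an ATF4 target that degrades glutathione, had 7.44, 6.74 and 6.71 in T98G and 8.26, 6.96 and 6.90 in U87MG. Replicate 1 stood apart in both lines, and the difference between the lines was 0.41 (-0.36 to 1.18). WARS1, the tryptophanyl-tRNA synthetase, had 10.81, 10.31 and 10.65 in T98G and 11.24, 10.55 and 10.44 in U87MG. Its difference was 0.15 (-0.32 to 0.62).

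The array numbered 1 was the highest of its line in both T98G and U87MG for 8 of these 10 enzymes, against 11.8% of all genes. The 8 were ASNS, PSAT1, PHGDH, PSPH, MTHFD2, CHAC1, WARS1 and CTH, and the exceptions were SHMT2 and CBS. This count was made after the values were seen. Replicate 1 exceeded the mean of the other two U87MG arrays by 1.81 for CTH, 1.58 for ASNS, 1.33 for CHAC1 and 1.08 for PSAT1. In T98G the same differences were 0.59, 0.69, 0.71 and 0.34. The second CTH probe set had 7.19, 6.86 and 6.92 in T98G and 8.05, 6.49 and 6.45 in U87MG, again with replicate 1 highest in both. The labels do not tie the numbers to a day or culture.

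The spread shows in the residual SD, the pooled SD between arrays of a line. It was 0.792 for CTH and 0.777 for ASNS, which ranked 5 and 8 from the largest among the 11963 genes. CHAC1, at 0.615, ranked 30 and PSAT1, at 0.487, ranked 97. The median was 0.330 over the 10 enzymes, 0.232 over the 5 transcription factors and 0.184 over the 8 ER folding genes, beside 0.146 over all genes. It was 0.327 over the 2 surface or secreted genes, 0.144 over the sensor and eIF2 genes and 0.123 over those of ER degradation and entry. For 8 of the 10 enzymes the difference between lines was smaller than the wider of the within-line ranges, which held for 57.0% of all genes. Without the arrays numbered 1, an alternative chosen after seeing the data, the differences were -0.47 for ASNS (adjusted p = 0.234), -0.57 for CTH (adjusted p = 0.0383), -0.37 for PSAT1 (adjusted p = 0.148) and 0.20 for CHAC1 (adjusted p = 0.321). The call of CBS held, at -4.06.

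**Figure D3:**
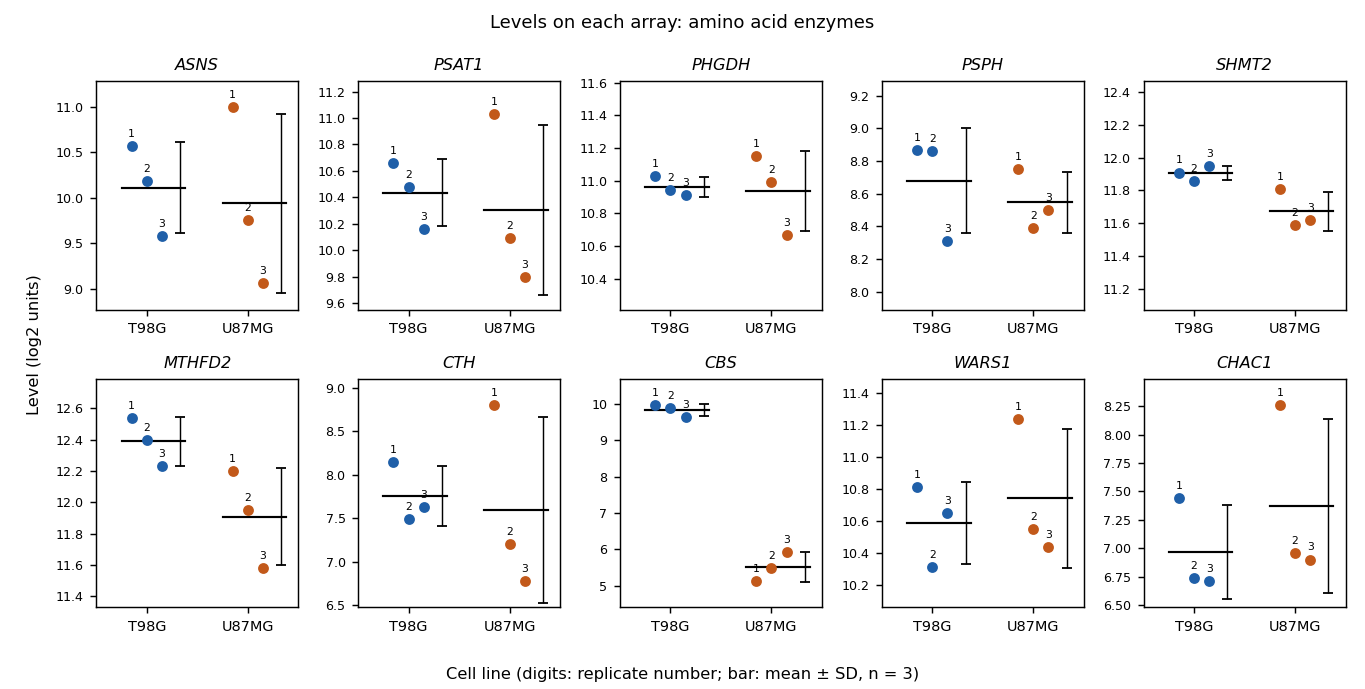
Level on each array, in log2 units on the vertical axes, which do not start at 0, for the 10 enzymes. Points are arrays numbered by replicate, lines are means and bars are SD (n = 3), and replicate 1 is the highest array of both lines for 8 of the 10.

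**Figure D4:**
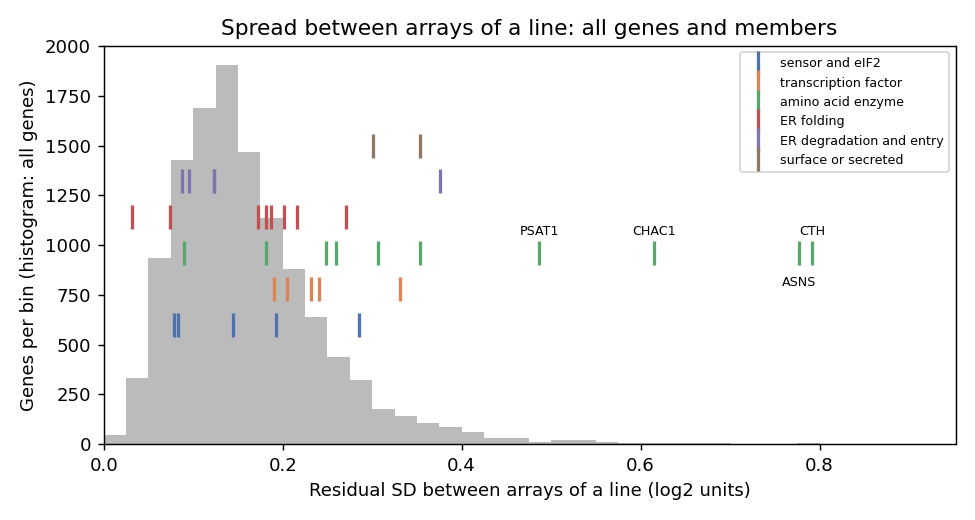
Residual SD between arrays of a line in log2 units, with the number of genes per bin for all 11963 genes in grey and each member as a coloured tick at the height of its role. CTH and ASNS, at 0.792 and 0.777, lie far to the right of the median of all genes, 0.146.

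Of the 8 ER chaperones and folding enzymes, 4 had an adjusted p under 0.05, against 41.3% of all genes. Each of the 4 was lower in U87MG, and HYOU1 alone was called. All 8 differences were below 0 on the deposited scale, as were those of 6147 of all 11963 genes. The PDIA4 difference turned to 0.01 when arrays were centred on their medians. HYOU1 had 11.70, 11.87 and 12.00 in T98G and 10.44, 10.65 and 10.85 in U87MG. Each T98G array lay well above each U87MG array, a difference of -1.21 (SE 0.13, adjusted p = 6.04e-05). Another 3 had an adjusted p under 0.05 short of 2-fold. SDF2L1, a partner of ER chaperones, stood at 9.62 ± 0.20 in T98G and at 9.04 ± 0.14 in U87MG, or -0.58 (adjusted p = 0.00512). CANX, the membrane lectin calnexin that holds folding glycoproteins, had 13.61, 13.59 and 13.64 in T98G and 13.07, 13.12 and 13.05 in U87MG. These arrays were the tightest of all members, with a difference of -0.54 (-0.74 to -0.33, adjusted p = 0.00112) and of -0.68 and -0.87 on the other probe sets. PDIA3, a disulfide isomerase that works with calnexin, had -0.49 (adjusted p = 0.0156, or 0.0636 without T98G replicate 2 and 0.0565 without T98G replicate 3).

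The remaining 4 had an adjusted p of at least 0.05 on their brightest probe sets. CALR, the soluble lectin calreticulin, had -0.45 (-0.83 to -0.06, adjusted p = 0.0640, or 0.0177 without U87MG replicate 3) on its brightest probe set, but -0.05 and 0.25 on the others. The disulfide isomerases PDIA6, P4HB and PDIA4 had -0.23, -0.19 and -0.03. The sign was negative on all 4 probe sets of PDIA6 and both of P4HB, while the second probe set of PDIA4 gave 0.04. Over all probe sets, the dimmer PDIA6 probe sets had an adjusted p of 0.00965 to 0.0462, and the second of P4HB had 0.0393.

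Of the genes of ER-associated degradation, SEL1L and EDEM1 had more transcript in U87MG, short of 2-fold. Those of entry into the ER did not pass on their brightest probe sets. Limma called 0 of the 5 measured, and 2 had an unadjusted p under 0.05, both higher in U87MG. SEL1L, the scaffold of the ligase complex that clears misfolded ER protein, had 9.77, 9.67 and 9.89 in T98G and 10.68, 10.68 and 10.58 in U87MG. Arrays agreed closely within each line, and the difference was 0.86 (0.64 to 1.09, adjusted p = 1e-04). Its 4 probe sets gave 0.52 to 1.12, the last of them past 2-fold but at only 4.68 ± 0.29 in T98G. EDEM1, which marks glycoproteins for degradation, stood at 9.01 ± 0.13 in T98G and at 9.46 ± 0.11 in U87MG, so the lines differed by 0.45 (0.19 to 0.70, adjusted p = 0.00966, or 0.0522 without T98G replicate 1). HERPUD1, a stress-induced part of the same complex, had 11.50, 11.09 and 11.54 in T98G and 11.44, 11.00 and 10.50 in U87MG. The lines overlapped, with a difference of -0.40 (-0.89 to 0.10), which was -0.62 without U87MG replicate 1 (adjusted p = 0.0290) and -0.16 without U87MG replicate 3. SEC61B, a subunit of the translocation channel, had 0.22 (-0.03 to 0.48), or 0.30 without U87MG replicate 3 (adjusted p = 0.0444). SERP1, a small protein that steadies membrane proteins under stress, had -0.08 (-0.32 to 0.15) on its brightest probe set. Its others gave -0.32 and -0.56, the latter with an adjusted p of 0.0164 over all probe sets.

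VLDLR had 5.27, 4.92 and 5.34 in T98G and 9.56, 9.03 and 8.87 in U87MG. The lines were more than 3 log2 units apart at their nearest arrays, with a difference of 3.98 (SE 0.18, adjusted p = 1.51e-07). The T98G values lie within the 3.95 to 6.22 of the markers of other cell types, and a fold measured that low depends on the background correction. VLDLR transcript is known to rise with PERK and ATF4 under ER stress. STC2, a secreted glycoprotein that is likewise known to rise with ATF4, had 10.84, 11.56 and 11.24 against 11.09, 11.18 and 10.54. Its arrays overlapped, the difference being -0.28 (-0.76 to 0.19), with -0.58 on its second probe set (adjusted p = 0.0298 over all probe sets). The difference on the brightest ranged from -0.47 to -0.08 when single arrays were left out.

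Of the 35 members, 16 had several probe sets, and for 13 of the 16 these gave differences of 1 sign. CALR, PDIA4 and CTH were the exceptions, with CTH at -0.16 and close to 0 on its probe sets. A probe set with another call than the brightest was found for EIF2S1, PSPH and SEL1L.

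**Figure D5:**
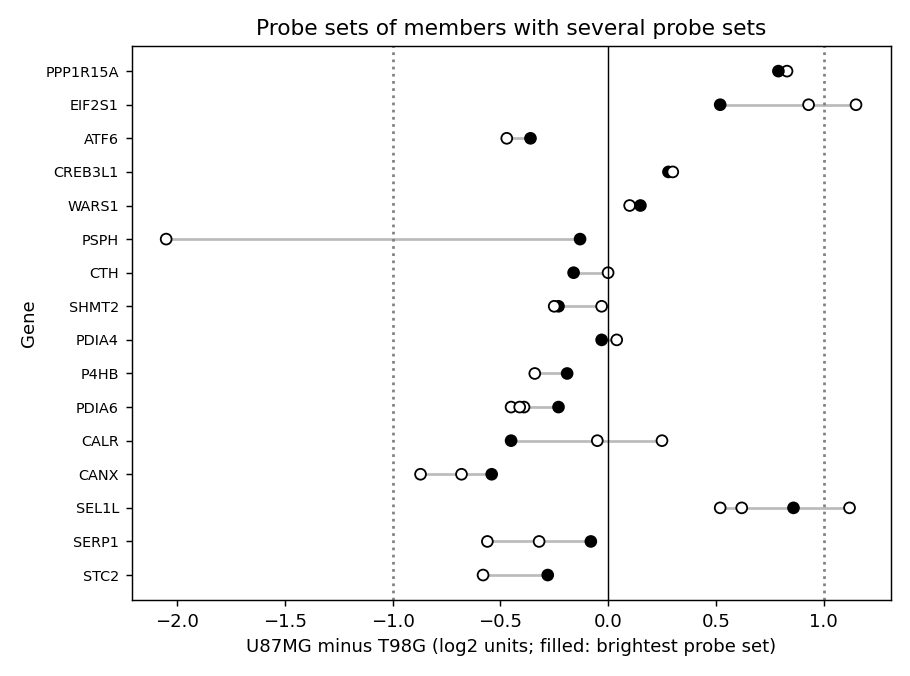
Difference between the lines, as U87MG minus T98G in log2 units on the horizontal axis, on each probe set of the 16 members with several. Filled points are the brightest probe sets, which the text uses, open points are the others and dotted lines mark 2-fold. PSPH is split between -0.13 and -2.05, while most other members lie close together.

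Other genes of the same pathways were counted in the same fit. Of all genes, 13.6% were called and 41.3% had an adjusted p under 0.05 without the fold minimum. The array numbered 1 was highest in both lines for 11.8% of all genes. These shares are the background for the counts of each list below. Of 26 measured ATF4 and amino acid response genes outside the members, 0 were higher and 4 lower in U87MG (15.4%). The furthest were transporters. SLC7A5, which imports large neutral amino acids, was at 12.83 ± 0.23 in T98G and 10.85 ± 0.55 in U87MG, 3.92-fold lower (adjusted p = 1.4e-04). SLC7A11, which imports cystine in exchange for glutamate, was 3.62-fold lower, with -2.36 to -1.86 on its 3 probe sets, but missed the stricter test beyond 2-fold. Without the fold minimum, 5 of the 26 were higher and 10 lower. The median difference was -0.30. For 12 of the 26 (46.2%) the array numbered 1 was highest in both lines.

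Among 16 other genes of the cytosolic aminoacyl-tRNA synthetases and their scaffold, limma called 0, and 7 had an unadjusted p under 0.05. Without T98G replicate 2, 1 was called. These enzymes load amino acids onto tRNA. The array numbered 1 was highest in both lines for 8 of the 16. The same count was 4 of 31 for other ER chaperones, 0 of 20 for ER-associated degradation, 5 of 27 for ER entry and 6 of 24 for other regulators.

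Of 31 other ER chaperone and folding genes, 2 were higher and 2 lower (12.9%). Without the fold minimum, 8 were higher and 6 lower, and 13 of the 31 differences were positive and 18 negative. CLGN, a lectin chaperone akin to calnexin, was 5.14-fold higher in U87MG (10.19 ± 0.23 against 7.83 ± 0.33), and DNAJC1, an ER co-chaperone, 2.60-fold higher. SERPINH1, the collagen chaperone HSP47, was 2.35-fold lower and CRELD2, an ER protein induced by stress, 2.19-fold lower (10.81 ± 0.10 against 11.95 ± 0.08). The last 3 missed the stricter test beyond 2-fold.

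Of 20 other genes of ER-associated degradation limma called 0, and 12 had an unadjusted p under 0.05. Without U87MG replicate 3, 1 was called. Of 27 ER entry genes, 0 were higher and 2 lower (7.41%). SPCS2, a subunit of signal peptidase, was 2.57-fold lower, and STT3A, which attaches glycans, 2.15-fold lower, the latter at -0.92 and not called without U87MG replicate 3. Of 24 other regulators, 3 were higher and 2 lower (20.8%, against 13.6% of all genes). TXNIP, a binder of thioredoxin, was 2.70-fold higher and BAX, a mediator of mitochondrial apoptosis, 2.20-fold higher. NFE2L2, the antioxidant factor NRF2 and a substrate of PERK, was at 10.51 ± 0.52 in U87MG and 12.32 ± 0.14 in T98G, 3.49-fold lower. NCK1, an adaptor that binds PERK, was 2.04-fold lower. It was not called without T98G replicate 1 (-0.96), without U87MG replicate 3 (-0.93) or when arrays were centred on their medians (-0.99). SPCS2, STT3A, TXNIP, BAX and NCK1 missed the stricter test beyond 2-fold.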

How the data were processed

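Biotin-labelled target from total RNA of each line was run on Affymetrix arrays, per the labels' protocols. The deposited values are log2 signals per probe set. The submitters' processing notes list RMA and limma, and what each was used for is not given in the sources used here. If RMA made them, a change in total RNA would not show, and differences of dim transcripts would be compressed. Of 22277 probe sets, 19064 had 1 gene in the 2016 platform annotation, whose symbols were updated through Entrez identifiers in RefSeq GRCh38.p14. The brightest probe set stood for each of 11963 genes. All genes were fitted together by lmFit and eBayes of limma 3.58.1 (R 4.3.3), with two-sided p-values adjusted by Benjamini-Hochberg. The fit was also run on data simulated from the means and residual SDs of the real arrays. Every measured member is named, and up to 2 called genes per direction from each of 6 other pathway lists. The members and lists were chosen with earlier results of these data known. Other thresholds, probe set choices, scalings and variance models, a replicate block and leaving out arrays were tried as alternatives. The number of arrays limits the precision.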

Additional observations from a re-analysis of the deposited data

How the results depend on the processing

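Of the members, 3 were called, and 15 with no fold minimum, 6 with a fold minimum of 1.5, 6 on any probe set and 0 without multiply matching probe sets, where 10 of the 35, VLDLR, CBS and HYOU1 among them, had no value. Over all genes, 1624 became 4942 with no fold minimum, 3171 at 1.5-fold and 873 under limma's treat. In the same order, with no fold minimum, at 1.5-fold and under treat, the other ATF4 list gave 15, 9 and 1 calls, and the ER chaperones 14, 10 and 1. ER entry gave 10, 6 and 0. The synthetases gave 6 and 3 under the first 2 of these settings, ER-associated degradation 8 and 4, and the regulators 12 with no fold minimum and 1 under treat. Without multiply matching probe sets the ATF4 list, the chaperones and the regulators had 2 calls each, and degradation and ER entry 1 each. Degradation had 1 call on the mean of probe sets, 2 on any probe set and 1 without the arrays numbered 1 of both lines, and ER entry had 4 on any probe set. Leaving out each array in turn gave 0 to 1 calls for the synthetases, 0 to 1 for degradation and 1 to 3 for ER entry. The members' median of -0.14 ranged from -0.24 to 0.01 over these omissions and was -0.03 without multiply matching probe sets.

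Small differences changed sign when single arrays were left out, with ranges of -0.24 to 0.01 for EIF2AK3, -0.7 to 0.26 for ASNS, -0.49 to 0.13 for PSAT1, -0.13 to 0.11 for PHGDH, -0.03 to 0.65 for CHAC1, -0.17 to 0.07 for PDIA4, -0.1 to 0.3 for WARS1 and -0.77 to 0.24 for CTH. PHGDH was 0.01 with arrays centred on their medians. CALR was 0.25 without multiply matching probe sets. PDIA4 was 0.01 on the mean of probe sets, centred and with quantile normalization repeated, and 0.04 without multiply matching probe sets. The cause of these changes was not tested. A filter on dim probe sets left ERN1, CHAC1 and CTH without a value. With the replicate number as a block, the members had 3 calls, all genes 1626 and the other ATF4 list 5. Under the block the adjusted p fell from 0.397 to 0.0459 for CHAC1 and from 0.0640 to 0.0442 for CALR. The labels name no factor besides the line, and the fit has no block. Same-numbered arrays deviated from their line means with r = 0.154, 0.068 and 0.0448 over all genes, which was not over 0.1 for each pair. Over the 35 members the same r was 0.723, 0.365 and 0.325, each over 0.1. For arrays of other numbers, r was 0.327 for T98G 2 with U87MG 3 and 0.287 for T98G 3 with U87MG 2. These were near the values of the pairs numbered 2 and 3, but far from the 0.723 of the arrays numbered 1. Pairs of an array numbered 1 with another number had -0.555 to -0.406. Deviations within a line cancel out, so these pairs are not independent, and the cause was not tested.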
